A study of Homo sapiens with 3 samples.

Results

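The ligands BMP2, BMP4, BMP6, BMP7, TGFB1, TGFB2 and TGFB3 and the receptors TGFBR1, TGFBR2 and BMPR2 were examined for RUNX2 and CBFB binding in SAOS2 cells. These 10 genes, of 20163 annotated protein-coding genes, were chosen by name, and their peaks were those within 25 kb of the gene body in GENCODE mapped to GRCh37 (hg19). By this rule 11 of 9941 RUNX2 peaks and 34 of 27246 CBFB peaks belonged to the 10 genes. Binding was measured by ChIP-seq, the sequencing of DNA recovered with an antibody from fixed chromatin, in untreated SAOS2 cells, an osteosarcoma cell line that lacks p53 and was kept at low passage. RUNX2 ChIP used a custom-made antibody, CBFB ChIP used a commercial CBFB antibody, and input DNA was the third sample, which was not analysed here. There was 1 library per antibody, so nothing below has a replicate check and no p-value was computed. Each list gave the position of a peak and its score, and the depth of the libraries is unknown.

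Bone morphogenetic proteins (BMPs) and transforming growth factors beta (TGF-beta) are secreted dimers that bring type II receptors such as BMPR2 and TGFBR2 together with type I receptors such as TGFBR1. The type I receptor then phosphorylates SMAD proteins, which enter the nucleus and act with DNA-bound factors, RUNX proteins among them. BMPs are known for inducing bone formation, and TGF-beta is stored in bone matrix in a latent form. RUNX2 is the transcription factor that osteoblasts require, and CBFB is the non-DNA-binding subunit with which RUNX proteins form a dimer.

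RUNX2 peaks were found at 5 of the 10 genes (BMP4, BMP6, TGFB1, TGFB2 and TGFBR2), and CBFB peaks at 8. A RUNX2 peak lay within 25 kb of 36.0% of all protein-coding genes, and a CBFB peak within 25 kb of 62.2%. The exact Clopper-Pearson 95% interval was 18.7 to 81.3% for the RUNX2 share of 50% and 44.4 to 97.5% for the CBFB share of 80%. Both intervals, which express counting error alone, hold the share over all genes. TGFB2 and TGFBR2 were counted through RUNX2 peaks below the list median alone. With RUNX2 peaks at or above that median, 3 genes were left (BMP4, BMP6 and TGFB1), against 21.5% of all protein-coding genes. Each gene with a RUNX2 peak also had CBFB peaks, BMP7, TGFBR1 and BMPR2 had CBFB peaks only, and BMP2 and TGFB3 had neither. The 7 ligands held 10 RUNX2 and 27 CBFB peaks, and the 3 receptors held 1 RUNX2 and 7 CBFB peaks.

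To show the DNA under these peaks, the stretch around the RUNX core motif nearest to the midpoint of the peak is given below for the highest-scoring RUNX2 peak of BMP4, BMP6, TGFB1 and TGFB2. The core motif is TGTGGT, or ACCACA on the other strand, and capitals mark it. A second BMP4 sequence is shown because its RUNX2 peak overlapped no CBFB peak, and it was chosen after its values were seen. For BMP7 and BMPR2, which had no RUNX2 peak, the stretch comes from the CBFB peak of the highest score that held a core. All are hg19, plus strand, 5′ to 3′, and the TGFB1 stretch is shorter because it touches an annotated UTR.
BMP4, RUNX2 peak with CBFB, chr14:54446250-54446349: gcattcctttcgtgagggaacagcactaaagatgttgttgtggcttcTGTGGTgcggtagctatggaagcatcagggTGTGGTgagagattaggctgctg
BMP4, RUNX2 peak without CBFB, chr14:54424512-54424611: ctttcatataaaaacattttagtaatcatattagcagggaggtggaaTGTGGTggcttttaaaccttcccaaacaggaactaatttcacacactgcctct
BMP6, RUNX2 peak with CBFB, chr6:7758956-7759055: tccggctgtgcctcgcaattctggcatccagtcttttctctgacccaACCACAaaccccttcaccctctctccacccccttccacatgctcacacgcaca
TGFB1, RUNX2 peak with CBFB, chr19:41829535-41829564: cccctctgcccaACCACAattttcccttcc
TGFB2, RUNX2 peak with CBFB, chr1:218550797-218550896: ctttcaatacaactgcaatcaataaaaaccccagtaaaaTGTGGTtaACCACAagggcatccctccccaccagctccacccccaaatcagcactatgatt
BMP7, CBFB peak, chr20:55857756-55857855: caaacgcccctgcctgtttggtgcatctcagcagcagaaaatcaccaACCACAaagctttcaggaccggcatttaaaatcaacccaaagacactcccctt
BMPR2, CBFB peak, chr2:203240885-203240984: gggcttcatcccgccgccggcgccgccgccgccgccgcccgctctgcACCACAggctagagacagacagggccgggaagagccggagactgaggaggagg
The distal BMP4 stretch held 2 cores in the same direction, and the TGFB2 stretch held 2 that faced each other with 2 bases between them. The other stretches held 1 core each. Such a match describes the letters and does not show that a RUNX protein sat there.

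**Figure D1:**
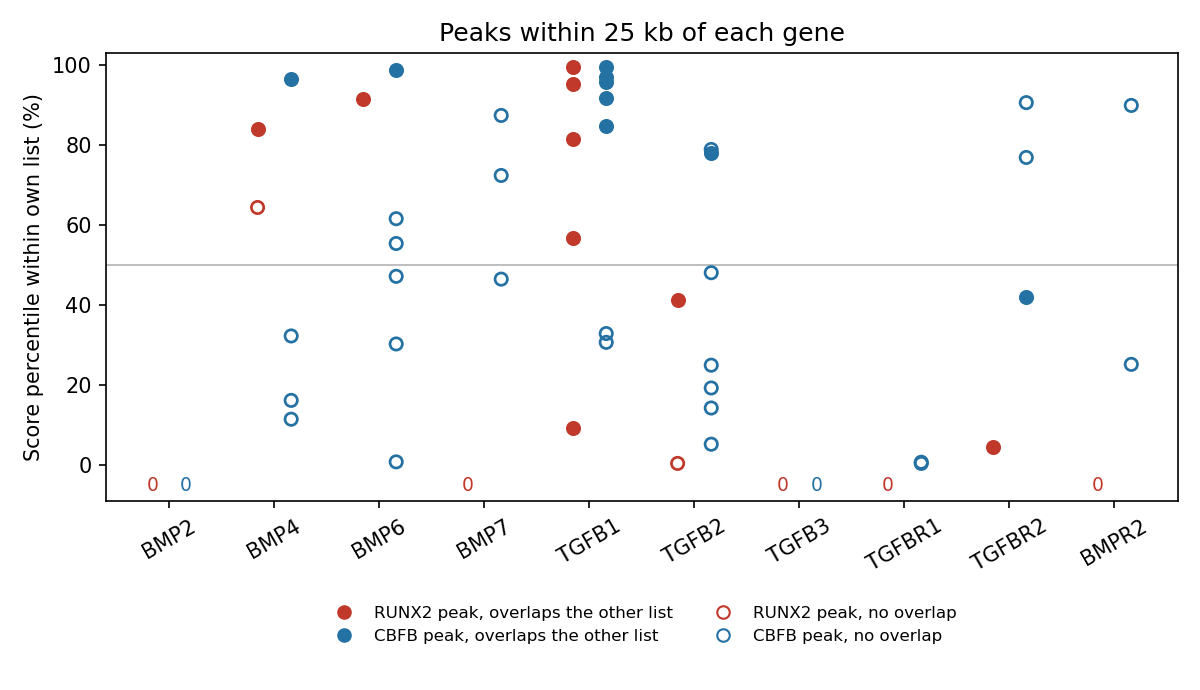
Score percentile of each peak within its own list (y axis, %) for the 10 genes (x axis), with RUNX2 peaks in red and CBFB peaks in blue, filled where the peak overlapped one of the other list and open where it did not. A 0 marks a gene without a peak of that list, and the grey line marks the middle of a list. RUNX2 peaks above 80% were those of BMP4, BMP6 and TGFB1, and the open blue points above 80% were those of BMP7, TGFBR2 and BMPR2.

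Peaks are described below by their score and by their percentile, the share of peaks in the same list with a score at or below it. The score was read as that of the peak caller, which grows as the p-value of a peak falls. It depends on depth, so no score was set against a score of the other list. Where percentiles of both lists are set side by side, this is a description only. The 11 RUNX2 peaks had scores from 50.19 to 635.23 and a median percentile of 64.4%, and 7 of them stood above the middle of the list. The 34 CBFB peaks had scores from 50.32 to 1727.91 and a median percentile of 47.7%, with 16 above the middle.

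BMP4, a ligand of early mesoderm and bone, had 2 RUNX2 and 4 CBFB peaks. The higher RUNX2 peak, at chr14:54445686-54446722, lay in intergenic DNA 22661 bp upstream of the start of the canonical transcript, with a score of 164.35 (84.1%). It was contained whole in a CBFB peak with a score of 820.64 (96.5%), and both held the same 2 cores. This was the only RUNX2 peak of the 10 genes in the distal class, outside any promoter or gene body.

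The other BMP4 RUNX2 peak, at chr14:54423932-54425092, had a score of 104.36 (64.4%) and no CBFB peak nearer than 4854 bp. It lay between annotated start sites of BMP4, with its midpoint 969 bp upstream of the canonical start and 967 bp downstream of the start of a longer transcript, in whose intron it sat. It held 2 cores, of which the nearer was 49 bp from the midpoint. The remaining CBFB peaks at BMP4 were low in their list, at 11.5% for a peak over the coding exon, 16.2% for a peak 24168 bp beyond the gene and 32.3% for a peak 12340 bp upstream of the canonical start. BMP4 thus had a RUNX2 peak near a start without CBFB, and a distal one with CBFB.

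BMP6, a BMP made in several tissues and known for its role in iron balance, had 1 RUNX2 and 6 CBFB peaks. The RUNX2 peak, at chr6:7758335-7759563, lay in an intron 32617 bp into the gene, with a score of 219.11 (91.5%). The CBFB peak around it scored 1293.75 (98.8%), the highest of the 10 genes outside TGFB1. The RUNX2 peak held 4 cores, a number that 7.85% of all RUNX2 peaks reached, with the nearest 56 bp from its midpoint.

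At the BMP6 start itself there was no RUNX2 peak. CBFB peaks lay over the start, with a score of 50.66 (0.837%), and 1423 bp downstream, with 136.28 (55.4%), and neither held a core. The other 3 CBFB peaks lay in introns 53909, 83560 and 116980 bp from the start, at 47.2%, 30.3% and 61.6% of the list. At BMP6 the only RUNX2 peak and the CBFB peak of the highest score thus lay at the same intronic site.

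BMP7, a ligand known for kidney and bone development, had 3 CBFB peaks and no RUNX2 peak. The nearest RUNX2 peak was 102322 bp from the gene, at chr20:55640681-55641487, with a score of 158.96 (83.1%). The highest CBFB peak, at chr20:55786995-55788393, scored 390.90 (87.4%), lay in an intron 54003 bp from the start and held no core. It lay within 5 kb of the start of BMP7-AS1 and so counted as a promoter peak below. The next, with 214.51 (72.4%), lay 16147 bp upstream over an exon of a long noncoding RNA and held 5 cores. The third, with 112.44 (46.5%), was intronic and held 4 cores.

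BMP2, a strong inducer of bone formation, had no peak of either list. Its nearest CBFB peak, at chr20:6711431-6712250, was 36083 bp away over an exon of LINC01713, with a score of 52.98 (3.66%). The nearest RUNX2 peak, at chr20:6849336-6850113, was 88443 bp away and scored 50.70 (1.86%). Both stood near the bottom of their lists. Within 500 kb of BMP2 there were 2 RUNX2 and 7 CBFB peaks.

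TGFB1, the most abundant TGF-beta of bone matrix, had 5 RUNX2 and 7 CBFB peaks, and CBFB was called at each of the 5 RUNX2 sites. At least 5 RUNX2 peaks were found at 0.695% of the protein-coding genes of similar length, and at least 7 CBFB peaks at 2.70%. Both the count and the length rest on a long annotated gene, as described below: with canonical transcripts, TGFB1 had 4 RUNX2 and 6 CBFB peaks, numbers that 0.830% and 1.69% of genes of similar canonical length reached. The highest RUNX2 peak of the 10 genes was here, at chr19:41827369-41830396, with a score of 635.23 and rank 64 of the list (99.4%). The CBFB peak around it had 1727.91 (99.5%), also the highest of the 10 genes. This RUNX2 peak was 3028 bp wide, and the nearest of its 3 cores was 667 bp from its midpoint, far from the middle of the peak.

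The peak of rank 64 does not lie in the canonical TGFB1 transcript, which spans chr19:41836228-41859827. GENCODE extends the gene to 41807492 through a single transcript without coding sequence, so the peak counted as intronic in TGFB1, and its midpoint also fell in a UTR of CCDC97. The next highest, at chr19:41815808-41816908, scored 277.14 (95.2%), lay 281 bp from the start of CCDC97 and held no core. Its CBFB partner stood at 84.7%, the only case in which the CBFB percentile was the lower one.

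At the TGFB1 start there was a RUNX2 peak at chr19:41859698-41861115, with a score of 150.70 (81.6%), and this was the only canonical start of the 10 genes that a RUNX2 peak covered. The CBFB peak around it scored 867.82 (96.9%) and had its midpoint 62 bp downstream of the TGFB1 start. The RUNX2 midpoint was 579 bp upstream of that start and nearer, at 332 bp, to a start of TMEM91. It held 1 core, 485 bp from the midpoint.

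The remaining RUNX2 peaks at TGFB1 scored 92.48 (56.7%) at chr19:41832941-41834330 and 54.22 (9.40%) at chr19:41803927-41804906, the latter over an exon of HNRNPUL1. Their CBFB partners stood at 95.8% and 91.8% of the CBFB list. CBFB peaks without RUNX2 lay 2201 bp downstream and 10501 bp upstream of the start, at 32.9% and 30.7%. The nearest protein-coding start was that of CCDC97 for 4 of the 5 RUNX2 peaks and that of TMEM91 for the fifth, so the peaks at TGFB1 cannot be told apart from peaks of its neighbours by position.

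TGFB2, the TGF-beta known for roles in heart and eye development, had 2 RUNX2 and 7 CBFB peaks. The higher RUNX2 peak, at chr1:218550507-218551462, was intronic, 32306 bp from the start, and scored 74.76 (41.4%). It lay inside a CBFB peak with a score of 257.31 (77.9%). Its 2 cores, printed above, faced each other 2 bases apart, an arrangement found in 15 RUNX2 peaks (0.151%) and 25 CBFB peaks (0.0919%) of the whole lists. That arrangement was looked for after the sequence was seen.

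The other RUNX2 peak at TGFB2, at chr1:218541919-218542495, scored 50.19 (0.453%), held no core and was 516 bp from the nearest CBFB peak, which itself had 62.16 (14.3%). The highest CBFB peak of the gene scored 266.51 (78.9%), lay 5693 bp from the start, held 5 cores and had no RUNX2 partner. A CBFB peak covered the start, with 74.69 (25%) and no core. The 3 others lay 38546, 64639 and 115116 bp from the start, at 5.25%, 19.3% and 48.1%. TGFB2 thus had as many CBFB peaks as TGFB1, with none above 80% of the list.

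TGFB3, which is needed for closure of the palate, had no peak of either list and was the most distant from any. The nearest CBFB peak was 245742 bp away, in TTLL5, with a score of 79.13 (28.2%). The nearest RUNX2 peak was 678426 bp away, at the start of FOS, with 54.64 (10.4%). Within 500 kb there were 0 RUNX2 and 2 CBFB peaks.

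TGFBR2, the type II receptor that binds TGF-beta, was the only one of the 3 receptors with a RUNX2 peak. This peak, at chr3:30682405-30683095, was intronic, 34657 bp from the start, and low in the list at a score of 51.79 (4.45%). Of its length, 90.9% lay in a CBFB peak with a score of 102.62 (42.1%). The highest CBFB peaks of the gene were elsewhere in the same gene body, at chr3:30699284-30701845 with 473.26 (90.6%) and at chr3:30696247-30697735 with 248.70 (76.9%), and neither overlapped a RUNX2 peak. Each held 3 cores. The second of them also held the palindromic SMAD element GTCTAGAC, which 0.816% of all CBFB peaks contained.

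TGFBR1, the type I partner of TGFBR2, had 2 CBFB peaks and no RUNX2 peak. Both were among the lowest of the list, with 50.59 (0.745%) in an intron 684 bp from the start and 50.32 (0.448%) 14005 bp upstream. The nearest RUNX2 peak, at chr9:101943747-101944628, scored 97.62 (60.3%) and lay 27273 bp from the gene, just outside the limit of 25 kb. Just inside the limit was the distal RUNX2 peak of BMP4, 20207 bp from its gene. At TGFBR1 the call of no RUNX2 peak rests on that distance.

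BMPR2, the type II receptor for BMPs, had 2 CBFB peaks and no RUNX2 peak, the nearest being 58073 bp from the gene. A CBFB peak of 2920 bp, at chr2:203239522-203242441, covered the start, with its midpoint 69 bp upstream, and scored 453.44 (89.9%). Its single core, printed above, was 47 bp from the midpoint. The other CBFB peak, 3357 bp downstream, scored 75.04 (25.2%) and held 4 cores. The peak over the BMPR2 start was the highest CBFB peak of the 10 genes that covered a start without a RUNX2 peak.

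**Figure D2:**
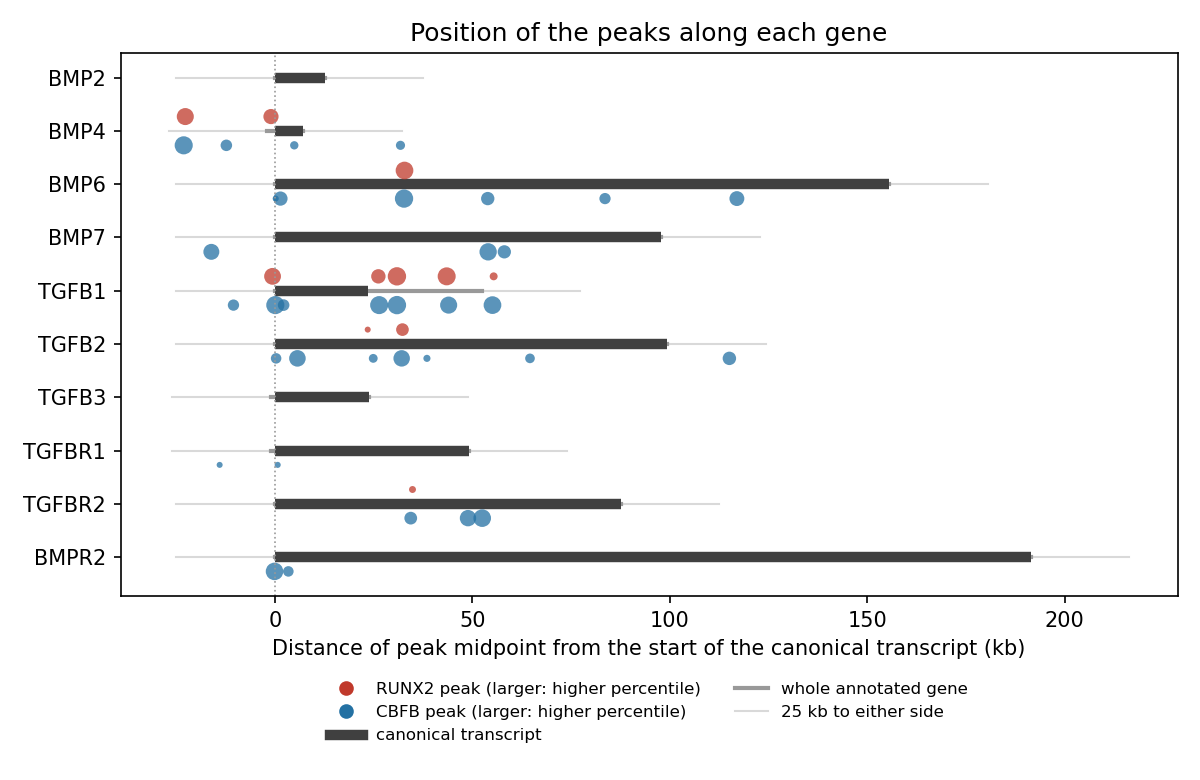
Distance of each peak midpoint from the start of the canonical transcript (x axis, kb, positive downstream) for the 10 genes (y axis), with RUNX2 peaks in red above each line and CBFB peaks in blue below it, larger for a higher percentile. Dark bars are canonical transcripts, grey bars whole annotated genes and thin lines the 25 kb to either side. The canonical start is covered by a RUNX2 peak only at TGFB1 and by a CBFB peak at BMP6, TGFB1, TGFB2 and BMPR2.

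The 10 genes placed peaks in promoters about as often as the whole lists did. A promoter was taken as 5 kb to either side of any annotated start, also that of a neighbour. By that measure 5 of 11 RUNX2 peaks (45.5%, interval 16.7 to 76.6%) were in promoters against 45.9% of the list, and 16 of 34 CBFB peaks (47.1%, interval 29.8 to 64.9%) against 46.2%. The 5 RUNX2 peaks were 4 at TGFB1 and that between the BMP4 starts. The canonical start itself was covered by a RUNX2 peak at 1 gene (TGFB1) and by a CBFB peak at 4 (BMP6, TGFB1, TGFB2 and BMPR2). The share of all protein-coding genes with a covered start is not given here, so these counts only describe the 10 genes. The nearest protein-coding start belonged to the gene in question for 6 of 11 RUNX2 and 27 of 34 CBFB peaks. By the nearest start of any transcript, noncoding ones included, this held for 5 of 11 and 19 of 34.

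Among the 11 RUNX2 peaks, 9 shared 1 bp or more with a CBFB peak (81.8%, interval 48.2 to 97.7%), against 94.2% of the list. The 2 exceptions were the BMP4 peak between the start sites and the lowest TGFB2 peak. The share depended on the overlap required. Where each peak had to cover 50% of the other, 4 of 11 passed (36.4%, interval 10.9 to 69.2%), at BMP6, TGFB1, TGFB2 and TGFBR2, against 75.2% of the list. Where midpoints had to lie within 200 bp, 3 of 11 passed (27.3%, interval 6.02 to 61.0%), at BMP6 and TGFB1, against 68.8%. Under both of these limits the share of the list lay above the interval, but 5 of the 11 peaks come from the TGFB1 locus. With the CBFB list as short as the RUNX2 list and 1 bp required, 8 of 11 passed (72.7%, interval 39.0 to 94.0%), against 69.7% of the list. A lower share at these genes was thus seen under some criteria and not under others. Among the 34 CBFB peaks, 9 met a RUNX2 peak (26.5%, interval 12.9 to 44.4%), against 33.8% of the list. In 8 of the 9 pairs the RUNX2 peak lay whole inside the CBFB peak, the exception being TGFBR2, and in 8 of 9 the CBFB peak had the higher percentile of the pair, the exception being the TGFB1 peak at the start of CCDC97. The shares of all pairs of the list are not given here, so both counts describe these 9 pairs and do not set the genes apart. CBFB peaks with a RUNX2 partner also stood high over the whole list, by the median given below. Percentiles come from lists of unequal length, so a gap between them is a description.

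**Figure D3:**
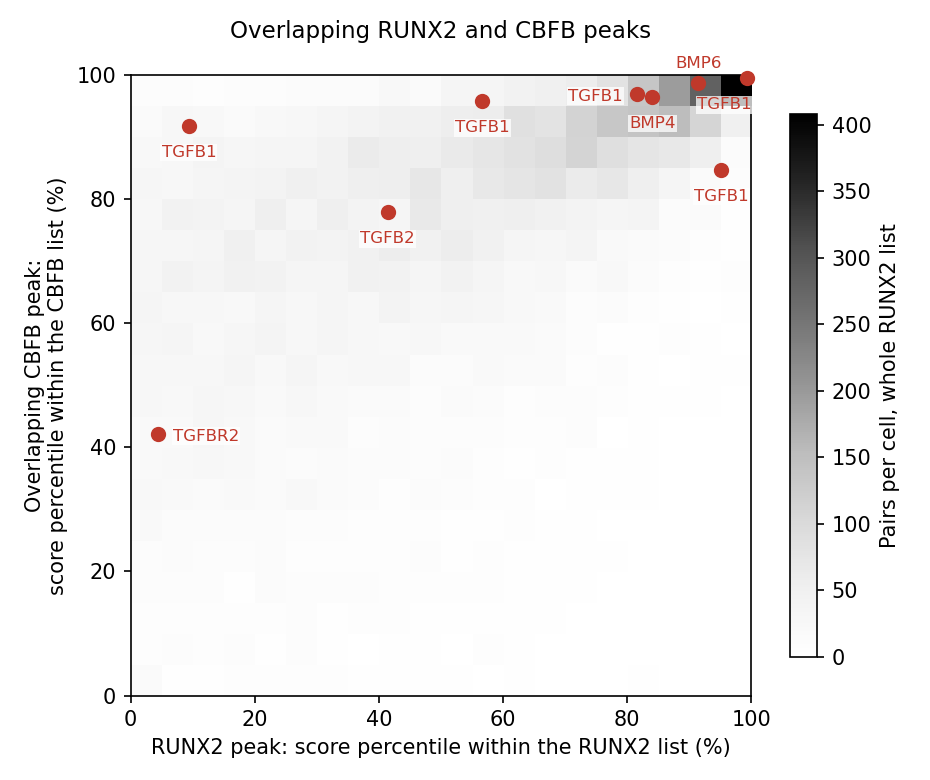
Score percentile of a RUNX2 peak in its list (x axis, %) against that of the overlapping CBFB peak in its own list (y axis, %), with red points for the 9 pairs at BMP4, BMP6, TGFB1, TGFB2 and TGFBR2 and grey cells for the number of such pairs over the whole RUNX2 list. The highest TGFB1 pair, at 99.4% and 99.5%, lies in the darkest cell, in the upper right corner. The pairs at BMP4, BMP6 and the TGFB1 start lie to the left of that cell, in lighter ones. The TGFBR2 pair lies lowest on both axes, at 4.45% and 42.1%.

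CBFB peaks with a RUNX2 partner stood higher in their list than those without, at the 10 genes as over the whole list. The median CBFB percentile was 95.8% for the 9 with a partner (42.1 to 99.5%) and 32.3% for the 25 without (0.448 to 90.6%), beside 80% and 35.9% over the list. Of the 10 CBFB peaks above 80% of the list, 7 overlapped a RUNX2 peak (70.0%, interval 34.8 to 93.3%), against 84.3% of such peaks in the list. Those 7 were the 5 pairs of TGFB1 and the highest peaks of BMP4 and BMP6. The 3 without a partner were the intronic peak of BMP7, the higher intronic peak of TGFBR2 and the peak over the BMPR2 start.

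Peaks with a RUNX core motif were about as frequent as in the whole lists, and the interval of each share held the share of its list. Within 100 bp of the midpoint, 4 of 11 RUNX2 peaks held a core (36.4%, interval 10.9 to 69.2%), against 43.2% of the list, and 18 of 34 CBFB peaks did (52.9%, interval 35.1 to 70.2%), against 41.6%. The 4 were both peaks of BMP4, the BMP6 peak and the TGFB1 peak over HNRNPUL1. Anywhere in the peak, 9 of 11 RUNX2 peaks held one (81.8%, interval 48.2 to 97.7%), against 78.1% of the list, and 27 of 34 CBFB peaks did (79.4%, interval 62.1 to 91.3%), against 80.9%. Of 35116 RefSeq promoter windows, 13.1% held a core, but these are 300 bases long and most peaks are longer, so this share cannot be compared with those of whole peaks.

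All 7 CBFB peaks without a core were among the 16 in promoters, and none was among the 18 elsewhere. They lay over the BMP4 coding exon, the BMP6 start and the coding exon next to it, the BMP7 intron, the start of CCDC97, a TGFB1 intron and the TGFB2 start. Over the whole CBFB list 27.6% of promoter peaks and 11.8% of the others lacked a core. Promoter peaks were also richer in G and C in the list, with a median of 52.6% against 43.6%, and the 7 ranged from 51.7 to 71.6%. Whether base composition has a part in this was not tested.

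Motifs of other factors were counted in the same peaks, on both strands. The TEAD motif GGAATG was in 25 of the 34 CBFB peaks (73.5%), against 55.8% of the list, and the AP-1 motif TGANTCA in 18 (52.9%), against 42.1%. At the 11 RUNX2 peaks the shares were 54.5% against 49.7% for TEAD and 36.4% against 37.9% for AP-1. The CBFB peaks were also wider than the list, with a median of 1394.5 bp against 1148 bp, as were the RUNX2 peaks, with 1101 bp against 937 bp. Per kb of CBFB peak there were 0.884 TEAD motifs against 0.674 in the list, and 0.523 AP-1 motifs against 0.443. Per kb of RUNX2 peak there were 0.737 TEAD motifs against 0.730, and 0.442 AP-1 motifs against 0.510. No interval is given for the TEAD and AP-1 shares. The part of peak width in these shares was not tested. The TGFBR2 peak at 90.6% held 6 AP-1 motifs, the most of any peak here, and it was among the peaks without a RUNX2 partner.

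The number of peaks near a gene also moves with its length, so the 10 genes were set beside protein-coding genes of similar length, in 5 classes of equal size. The share of genes with a RUNX2 peak ran from 26.1% in the shortest class to 49.0% in the longest, and that with a CBFB peak from 47.4 to 74.0%. BMP6, BMP7, TGFB2 and BMPR2 were in the longest class, where BMP7 and BMPR2 had no RUNX2 peak. BMP4, at 9.03 kb in the second class, had 2 RUNX2 and 4 CBFB peaks, numbers that 10.4% and 8.31% of that class reached. BMP2 was in the same class and TGFB3 in the third, where 32.6% and 34.9% of genes had a RUNX2 peak and 58.8% and 63.6% a CBFB peak. The RUNX2 peak numbers of BMP6, TGFB2 and TGFBR2 were reached by 49.0%, 26.1% and 37.7% of their classes. Their CBFB numbers were reached by 18.6%, 14.0% and 23.1%. For the CBFB numbers of BMP7, TGFBR1 and BMPR2 the shares were 42.4%, 40.9% and 55.8%.

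**Figure D4:**
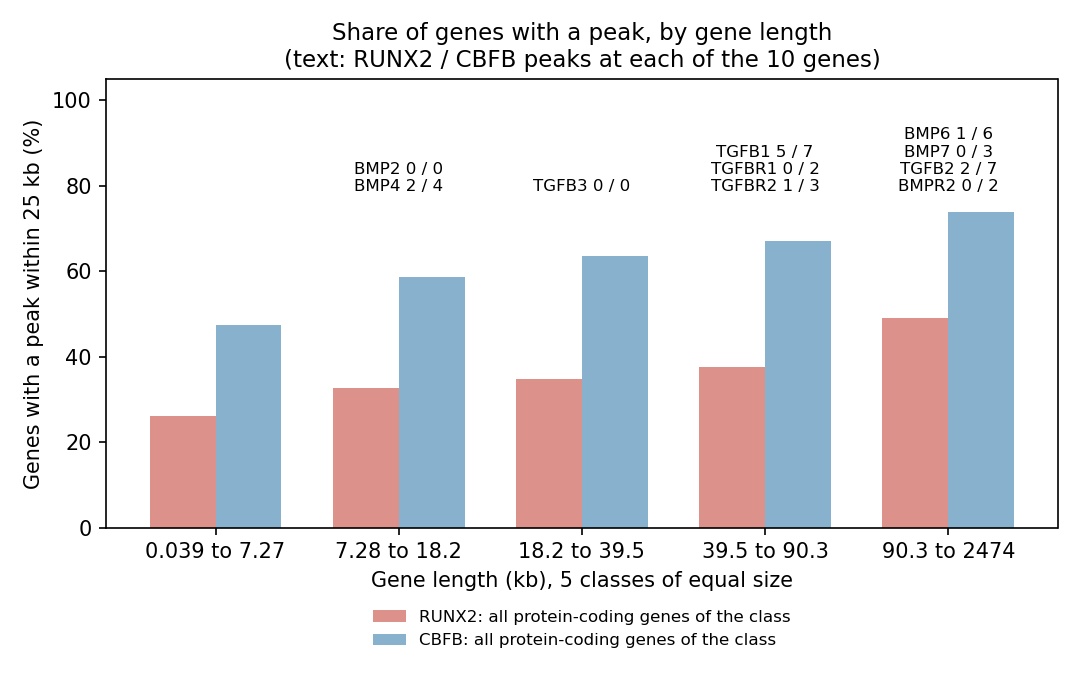
Share of protein-coding genes with a RUNX2 peak (red bars) or a CBFB peak (blue bars) within 25 kb (y axis, %) in 5 classes of gene length (x axis, kb). The text above each class gives the RUNX2 and CBFB peak numbers of the genes studied here, and the bars rise from 26.1 to 49.0% and from 47.4 to 74.0% with length.

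The other genes of the pathway were counted in the same way, from lists of 26 further ligands, 11 further receptors and co-receptors and 21 extracellular regulators. Of the further ligands 8 had a RUNX2 peak (30.8%) and 16 a CBFB peak (61.5%). Of the receptors and co-receptors 5 had a RUNX2 peak (45.5%) and 9 a CBFB peak (81.8%), and of the regulators 8 (38.1%) and 15 (71.4%). Over all 58 genes the shares were 36.2% and 69.0%, close to the 36.0% and 62.2% of all protein-coding genes.

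The 5 further genes with the highest RUNX2 peaks were TGFBR3, BMPER, LTBP2, LEFTY1 and LEFTY2. TGFBR3, the co-receptor betaglycan, had 5 RUNX2 and 8 CBFB peaks, and its highest RUNX2 peak, at chr1:92389235-92390737, scored 467.39 (98.9%), second only to the TGFB1 peak among all genes examined. BMPER, a secreted BMP-binding regulator, had an intronic peak with 170.00 (85.2%), and LTBP2, of the family of latent TGF-beta binding proteins, an intronic one with 137.05 (77.9%). LEFTY1 and LEFTY2, extracellular antagonists of NODAL, are neighbours and shared an intergenic peak with 136.46 (77.7%). All of these peaks overlapped a CBFB peak.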

How the data were processed

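Peaks were called by the authors with MACS (version 1.4.1 in the submitters' processing notes, which also name CASAVA 1.8.2 and hg19), per library. The aligner, the calling limit, the depth and the use of the input were not given in the sources used here. The deposited score of a peak was taken as −10 times log10 of its p-value, from the range of its values (50 to 3100 in both lists).

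The 10 genes and the pathway lists were chosen with earlier results of these data known. Gene models were from GENCODE 44 in its GRCh37 version, and the canonical transcript was the Ensembl choice. Peaks on other contigs than chromosomes 1 to 22, X and Y (13 RUNX2 and 42 CBFB) were left out of annotation and motif steps. Overlap required 1 bp. Percentiles were taken within a list. The text names all 10 genes with every peak and, for some peaks only, the gene in or nearest to which the peak lies. It also gives the nearest peak of a gene without one, and the 5 further pathway genes with the highest RUNX2 scores. Motifs were sought as exact letters in hg19 on both strands. The sequence at the TGFBR2 peak is not reported here. The RefSeq promoter windows came from a GRCh38 table, 250 bases before to 50 after each start. Counting steps were tested on simulated peaks. Python 3.11.15, numpy 2.4.6, pandas 2.3.3, scipy 1.17.1 and matplotlib 3.10.9 were used.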

Additional observations from a re-analysis of the deposited data

How the results depend on the processing

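Of 42 recomputed values, 29 stayed within the limits set (1.5 times for a count, the 95% interval for a share) and 13 moved. At a reach of 50 kb there were 18 RUNX2 peaks, and 6 genes had one, against 46.0% of all protein-coding genes. With scores of at least 100, RUNX2 peaks were left at 3 genes (BMP4, BMP6 and TGFB1), against 17.4% of all, with 6 RUNX2 and 20 CBFB peaks. With scores at or above the list median RUNX2 peaks were left at the same 3 genes, against 21.5% of all, with 7 RUNX2 and 16 CBFB peaks. With the CBFB list as short as the RUNX2 list, 14 CBFB peaks were left, at 7 genes, against 34.6% of all protein-coding genes. The share of RUNX2 peaks overlapping CBFB was 36.4% where each peak had to cover 50% of the other (75.2% over the list) and 27.3% for midpoints within 200 bp (68.8%). A core anywhere in the peak was in 9 of 11 RUNX2 peaks, against 78.1% of the list. The longer motif TGTGGTT was in 11 CBFB peaks near the midpoint, and 29.4% of CBFB peaks were within 1 kb of a start. For the longer motif and the 1 kb limit the list shares are not given here. Both settings are stricter and can only lower a share, also that of the list. The cause of these moves was not tested. The canonical transcript as the gene span, added after the data were seen, left 10 RUNX2 and 33 CBFB peaks. No paired analysis was possible because there was 1 library per antibody. Without replicates or read counts, a gene without a peak may hold binding under the calling limit.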
